A study of Mus musculus with 4 samples.

Results

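Somatostatin is an inhibitory neuropeptide that acts, together with its close relative cortistatin, on a family of receptors in the brain. The transcripts described are the 6 genes listed by symbol as Sst (somatostatin), Cort (cortistatin) and the receptor genes Sstr1, Sstr2, Sstr3 and Sstr4, out of 53465 gene identifiers in the deposited count matrix. Each symbol matched 1 identifier. Sstr5, the remaining receptor gene, is given beside them. Poly(A) RNA was sequenced from lateral habenula tissue of C57BL/6 mice, with 2 libraries for group housing and 2 for social isolation, which the series title calls acute. The sources used here give neither the length of isolation nor the age or sex of the mice, and the labels name no transgene, drug or batch. Whether each library holds 1 mouse or several is not stated, and the p-values therefore describe the spread among these 4 libraries, which may be technical. The libraries held between 20897605 and 26428152 counts, with 24301 to 25616 genes detected.

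Both peptides are cut from longer precursors, stored in dense-core vesicles and released from neurons, many of which also use GABA. Their receptors couple to inhibitory G proteins of the Gi and Go class, which lower cyclic AMP, open GIRK potassium channels and restrain calcium channels, so that the receiving neuron becomes less excitable. The lateral habenula is a small, mostly glutamatergic nucleus between forebrain inputs and the monoamine neurons of the midbrain, and it borders the medial habenula, the thalamus and the hippocampus.

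The stretches that encode the active ends of the peptides show how alike the ligands are. Below are the last 42 coding bases of Sst (chr16:23889732-23889773, minus strand) and the best ungapped match to them near the end of the Cort coding sequence (chr4:149125270-149125311, minus strand), from GENCODE M21 on GRCm38, with bases that are the same in both in capitals. The runs share 31 of 42 bases (73.8%).
Sst: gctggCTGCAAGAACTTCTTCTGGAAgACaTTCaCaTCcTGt
Cort: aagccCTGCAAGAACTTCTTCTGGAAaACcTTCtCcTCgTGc
The unbroken shared run of 21 bases is the longest that Sst and Cort transcripts have in common.

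The receptor genes were compared too, because reads can only be told apart where the genes differ. Over whole coding sequences the 10 receptor pairs were between 55.2% and 66.4% identical, with Sstr1 and Sstr4 the closest pair. The longest run that any 2 of the 7 genes share was 41 bases, between Sstr3 and Sstr5. No exon of these 7 genes overlaps an annotated exon of another gene. The coding sequences of Sst (116 codons) and Cort (109 codons) lie in 2 exons each, and those of the receptors (362 to 428 codons) lie in 1 exon each.

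Transcripts of 1 peptide and 2 receptors dominated the family. On the scale of counts-per-million values (CPM) divided by exon length in kilobases (RPKM), which allows levels to be compared between genes, Sstr2 had the highest mean level over the 4 libraries (31.3 ± 3.08, SD, n = 4), followed by Sst (21.9 ± 5.96) and Sstr4 (18.7 ± 2.89). Sstr1 (3.66 ± 0.529) and Sstr3 (2.71 ± 0.392) were several-fold lower, Sstr5 (0.357 ± 0.138) was lower again, and Cort (0.0924 ± 0.0433) was near the detection limit. Among the tested genes, the mean RPKM of Sstr2 lay at percentile 91.3, that of Sst at 86.3, Sstr4 at 83.6, Sstr1 at 44.6 and Sstr3 at 38.8. Within every library Sstr2 exceeded Sst, by a ratio of 1.14 to 1.98, although the ranges over libraries overlapped. Sst exceeded Sstr4 in 3 of 4 libraries, with ratios from 0.861 to 1.45, so the order of these neighbours does not stand beyond their spread. Sstr4 exceeded Sstr1 in each library, by 5.12 times in the mean and with no overlap of the ranges, whereas the ranges of Sstr1 and Sstr3 overlapped (ratios of 1.15 to 1.56).

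**Figure D1:**
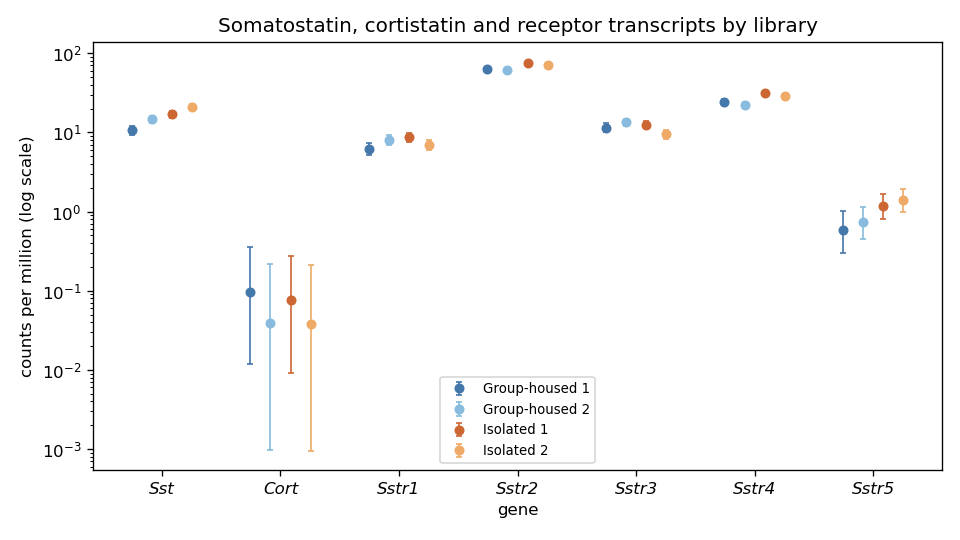
CPM of each gene in each library, on a log axis. Points are libraries, bars are exact Poisson 95% intervals that cover counting error only, and colours separate the group-housed (blue) from the isolated (orange) libraries. Sstr2 lies highest at 60.5 to 74.5, and Cort lies lowest, with 1 or 2 counts in each library.

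The main question of the design is whether transcripts differ between isolated and group-housed animals. Of the 5 members with enough counts, 0 passed the quasi-likelihood test of edgeR after Benjamini-Hochberg adjustment over 17528 genes, where 2 genes (0.0114%) passed as higher and 0 (0%) as lower. DESeq2 also called 0 members, beside 0.290% of genes higher and 0.0691% lower, as did edgeR's exact test (0.382% and 0.0856%) and limma-voom (0.0114% and 0%). With the replicate number as a block, Sst alone of the members passed (edgeR adjusted p = 0.0461), beside 0.297% of genes higher and 0.0685% lower, but the labels do not say that the numbers pair the libraries. Sst, Sstr2 and Sstr4 measured higher in both isolated libraries than in both group-housed ones, an arrangement that 17.4% of all tested genes showed in that direction and 16.3% in the other. These 3 also had an unadjusted p below 0.05 in the quasi-likelihood test without the block, as did 2.83% of tested genes in the higher direction and 2.26% in the lower, and 0 members did so as lower. In bulk tissue, a different share of cells of a type and a different amount of RNA per cell cannot be told apart.

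Sst, which encodes the somatostatin precursor (ENSMUSG00000004366, chr16:23889573-23890958, minus strand), measured 10.6 and 14.7 CPM in replicates 1 and 2 of the group-housed animals, and 16.9 and 20.9 CPM in those of the isolated ones. Group-housed replicate 1 was the low library and isolated replicate 2 the high one, and the middle libraries lay close together. Their exact Poisson intervals overlapped, at 13.3 to 16.3 CPM for group-housed replicate 2 and 15.3 to 18.5 for isolated replicate 1. The means were 12.7 ± 2.88 and 18.9 ± 2.86 CPM (n = 2 each, SD), giving a fold of 1.48 with a 95% interval of 1.14 to 1.93. The log2 fold change was 0.57 (SE 0.17, edgeR adjusted p = 0.729). This value depended on single libraries more than those of Sstr2 and Sstr4 did: it was 0.36 when replicate 1 of the group-housed libraries was left out and 0.82 when replicate 2 was.

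Cort, which encodes the cortistatin precursor (ENSMUSG00000028971, chr4:149125034-149126763, minus strand), gave 2 and 1 counts in the 2 group-housed libraries, against 2 and 1 counts in the 2 isolated ones. It did not pass the filter on low counts. Pooled over each group, 3 counts corresponded to 0.0649 CPM in group-housed (exact Poisson 95% interval 0.0134 to 0.190) and 0.0569 CPM in isolated libraries (0.0117 to 0.166). A difference in Cort was therefore not detectable at this depth, and no fold is given.

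Sstr2, the receptor most studied in brain and pituitary and a main target of therapeutic somatostatin analogues (ENSMUSG00000047904, chr11:113619342-113626028, plus strand), measured 62.6 and 60.5 CPM with group housing and 74.5 and 70.7 CPM with isolation. The groups did not overlap. The counting intervals of the nearest libraries were also apart, at 59.2 to 66.1 CPM for group-housed replicate 1 and 67.5 to 74.0 CPM for isolated replicate 2. The means were 61.6 ± 1.45 and 72.6 ± 2.66 CPM (n = 2 each, SD), giving a fold of 1.18 (95% interval 1.07 to 1.31). The log2 fold change was 0.24 (SE 0.064, edgeR adjusted p = 0.663). Leaving out any 1 library gave values from 0.20 to 0.28.

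Sstr4, a receptor known from hippocampal and other forebrain neurons whose gene has no intron (ENSMUSG00000037014, chr2:148395344-148396767, plus strand), measured 24.4 and 22.3 CPM in the group-housed against 31.5 and 28.5 CPM in the isolated replicates. The lower isolated library lay above the higher group-housed one, and the counting intervals of the nearest pair just met (22.3 to 26.6 and 26.5 to 30.6 CPM). The means were 23.3 ± 1.47 and 30.0 ± 2.11 CPM (n = 2 each, SD), giving a fold of 1.29 (95% interval 1.11 to 1.49). Its log2 fold change was 0.36 (SE 0.091, edgeR adjusted p = 0.551), and leaving out any 1 library gave values from 0.29 to 0.43. By its p-value in that test it ranked 113 among the 17528 tested genes, beside 141 for Sstr2 and 194 for Sst.

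Sstr1, which serves as an autoreceptor on somatostatin neurons in some regions (ENSMUSG00000035431, chr12:58211772-58214444, plus strand), measured 6.24 and 8.01 CPM in the 2 group-housed libraries, against 8.68 and 6.99 CPM in the 2 isolated ones. The groups overlapped, with the lowest and the highest library differing more than the group means of 7.13 ± 1.26 and 7.84 ± 1.20 CPM (SD, n = 2 per group). The fold was 1.09 with an interval of 0.823 to 1.46 (edgeR adjusted p = 0.9998). Its log2 fold change of 0.13 turned to -0.032 without group-housed replicate 1 and to -0.038 without isolated replicate 1.

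Sstr3, a receptor that sits on the primary cilium of many neurons (ENSMUSG00000044933, chr15:78537008-78544685, minus strand), was the tested member with the lower mean in isolated libraries. It measured 11.5 and 13.3 CPM with group housing and 12.6 and 9.44 CPM with isolation, so the groups overlapped and isolated replicate 2 was the low library. The means were 12.4 ± 1.34 and 11.01 ± 2.21 CPM (n = 2 each, SD), giving a fold of 0.885 (95% interval 0.687 to 1.14, edgeR adjusted p = 0.9998). The log2 fold change was -0.18, and 0.016 without isolated replicate 2.

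Sstr5, known from the pituitary and pancreatic islets (ENSMUSG00000050824, chr17:25489875-25497288, minus strand), was scarce, with 12 and 19 counts in the group-housed against 31 and 37 counts in the isolated replicates. On the CPM scale these were 0.585 and 0.739 against 1.18 and 1.40, and the groups did not overlap. The fold was 1.92 with a wide interval of 1.15 to 3.20, and the edgeR adjusted p = 0.840. Pooled over each group the exact Poisson intervals were 0.456 to 0.952 and 1.001 to 1.63 CPM.

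**Figure D2:**
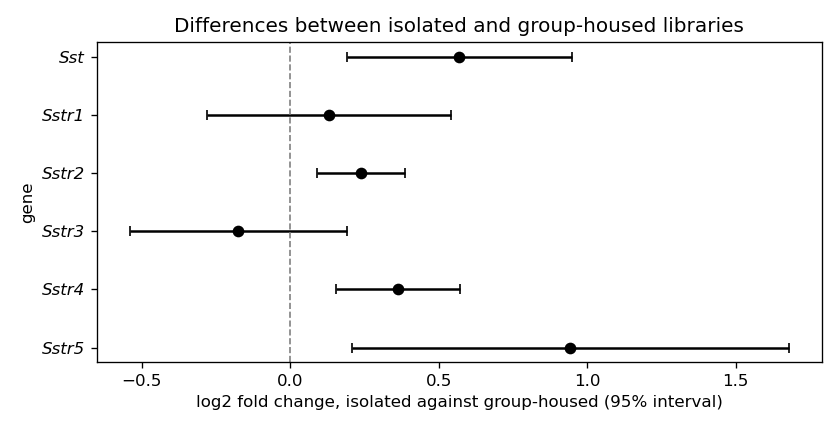
Log2 fold change of isolated against group-housed libraries for the tested genes, with 95% intervals from the edgeR quasi-likelihood fit (2 libraries per group). The intervals of Sst, Sstr2, Sstr4 and Sstr5 lie above 0 before any adjustment for the 17528 genes tested, and those of Sstr1 and Sstr3 span 0.

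Sstr2 and Sstr4 made up most of the receptor transcripts in every library. On the RPKM scale, Sstr2 held 55.9% and 55.2% of the summed level of the 5 receptor genes in the 2 group-housed libraries, against 53.9% and 55.8% in the 2 isolated ones. Sstr4 held 32.8% and 30.6% against 34.3% and 33.8%, so the isolated libraries lay higher by 2.39 percentage points on average. Sstr3 held 5.08% and 6.04% against 4.52% and 3.70%, lower by 1.45 points. Sstr1 held 5.78% to 7.65% with overlapping groups, and Sstr5 0.410% and 0.528% against 0.671% and 0.865%. The summed receptor level was 52.2 and 51.2 RPKM with group housing and 64.4 and 59.1 RPKM with isolation. Sst stood at 0.282 and 0.399 of that sum against 0.363 and 0.491, with overlapping groups. In an exact 2-sided permutation test over the 4 libraries, the shares of Sstr3, Sstr4 and Sstr5 and the receptor sum gave p = 0.333, which is the smallest p that 2 against 2 libraries allow. The shares of Sstr1 and Sstr2 and the ratio of Sst to receptors gave p = 0.667 in the same exact test, and after Benjamini-Hochberg adjustment over these 7 quantities the permutation values were 0.583 and 0.667.

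**Figure D3:**
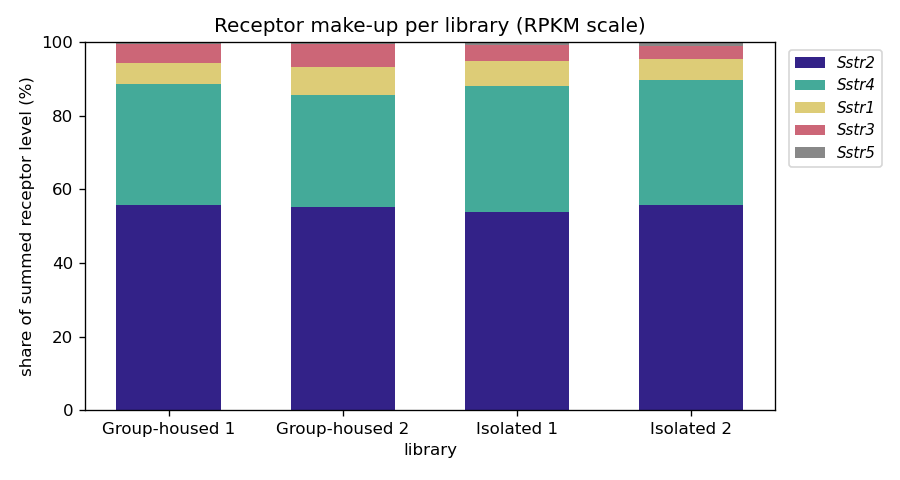
Share of each receptor gene in the summed RPKM of Sstr1 to Sstr5, in percent, for each library (stacked bars from 0 to 100). Sstr2 holds 53.9% to 55.9% and Sstr4 30.6% to 34.3% in every library.

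The promoters of Sst and Sstr2 both hold the cyclic AMP response element, which is shown because it was first studied in the somatostatin promoter. RefSeq promoter windows (GRCm38.p6, 250 bases before to 50 after the annotated start) were found for 5 of the 7 genes, namely Sst, Cort, Sstr2, Sstr3 and Sstr4. The palindrome TGACGTCA, which reads the same on both strands, occurred in the windows of Sst and Sstr2 and not in those of Cort, Sstr3 or Sstr4. Sstr1 and Sstr5 had no window and were not searched, and any link of the element to expression was not tested. Runs of 30 bases around it are given, with the element in capitals, at chr16:23890874-23890903 (Sst, minus strand) and chr11:113619258-113619287 (Sstr2, plus strand).
Sst: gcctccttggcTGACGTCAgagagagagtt
Sstr2: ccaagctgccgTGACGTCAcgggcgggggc
The element ends 40 bases before the RefSeq start of Sst and 50 bases before that of Sstr2. GENCODE M21 starts the Sst transcript further upstream, at 23890958, so there the element falls in the first exon. Of 32851 windows of this length in the table, 588 (1.79%) hold the same 8 letters.

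Genes that cut the peptides and relay their signal did not pass the test. Across the 6 pathway lists 0 of 47 genes passed in either direction with edgeR's quasi-likelihood or exact test, DESeq2 or limma-voom, and the median log2 fold change of all tested genes was 0.0033. At an unadjusted p below 0.05 in the quasi-likelihood test 2 of the 47 were higher and 3 lower, beside 2.83% higher and 2.26% lower of all tested genes. Of 10 genes of peptide processing and breakdown 5 were higher and 5 lower (median 0.02, and -0.026 without isolated replicate 1). The carboxypeptidase gene Cpe, which trims peptide ends and was the most abundant, measured 2296 and 2028 CPM in the group-housed against 1983 and 2023 CPM in the isolated replicates. Pcsk1, the convertase that cuts precursors in dense-core vesicles, measured 105 and 112 against 122 and 122 CPM (log2 fold change 0.17, edgeR adjusted p = 0.868).

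The relays that the receptors use are given by class, beside 8547 of all 17528 tested genes with the lower fitted level in isolated libraries. Of 5 Gi and Go alpha subunit genes 4 were lower (median log2 fold change -0.11), with Gnai1 at 103 and 95.4 CPM in the group-housed against 86.8 and 77.5 CPM in the isolated replicates (-0.27, edgeR adjusted p = 0.685) and the abundant Gnao1 at 843 to 885 against 837 to 905 CPM. Of 4 GIRK channel genes 3 were lower (median -0.09), but the median was 0.13 without isolated replicate 2, 0.012 without group-housed replicate 2 and -0.28 without isolated replicate 1. Kcnj3, a GIRK subunit gene, measured 47.8 and 49.1 against 45.6 and 37.4 CPM, and the most abundant subunit gene, Kcnj9, 116 and 126 against 125 and 111 CPM. Of 8 adenylyl cyclase genes, whose products make the cyclic AMP that the receptors restrain, 7 were lower (median -0.05), and this median too changed sign, to 0.054, without isolated replicate 2 and was -0.16 without isolated replicate 1. Adcy1, a cyclase stimulated by calcium, measured 155 and 160 against 141 and 103 CPM (-0.36, edgeR adjusted p = 0.840), with isolated replicate 2 the low library, and Adcy5, the most abundant, measured 158 and 154 against 149 and 126 CPM. Exons of Kcnj3, Kcnj9 and Gnao1 overlap those of an antisense or other non-coding gene, which leaves their counts uncertain, because no source used here states how strand was handled in counting.

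Arrestins and receptor kinases, which end receptor signalling, had 3 of 7 genes higher (median log2 fold change -0.03, and 0.029 without isolated replicate 2). Arrb2, β-arrestin 2, measured 48.4 and 46.5 CPM in the 2 group-housed libraries, against 59.5 and 55.4 CPM in the 2 isolated ones, with no overlap (0.28, edgeR adjusted p = 0.570). Its exons overlap those of a microRNA gene. The more abundant Arrb1 measured 318 and 324 against 328 and 289 CPM. Genes of the neuronal primary cilium, the seat of the Sstr3 receptor, had 11 of 13 members higher (median 0.06), beside 8981 of all 17528 tested genes. Among them Ift122, a ciliary transport gene, measured 48.1 and 48.1 against 53.9 and 52.5 CPM (0.15, edgeR adjusted p = 0.974), and the motor gene Kif3a 187 and 181 against 203 and 180 CPM.

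**Figure D4:**
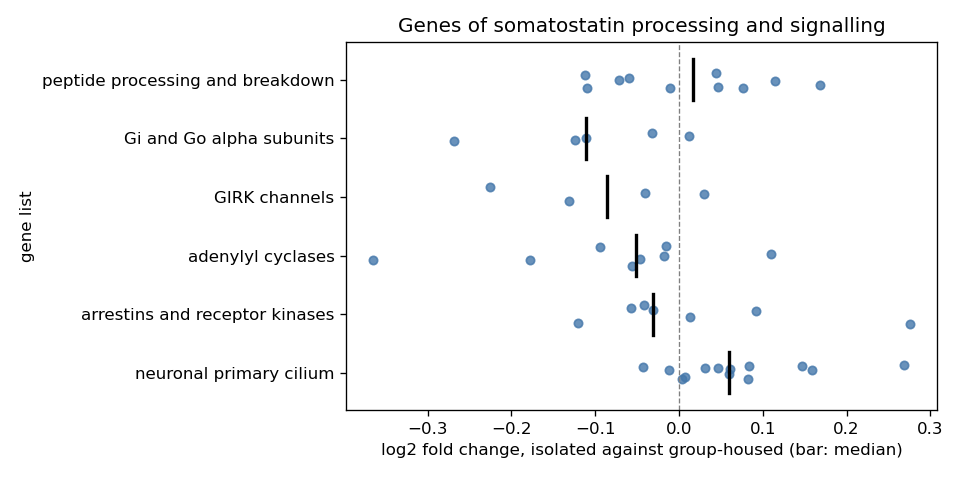
Log2 fold change of isolated against group-housed libraries for the 47 genes of 6 pathway lists. Each point is a gene, the black bar is the median of its list, and points are spread vertically at random within a row. The medians lie between -0.11 and 0.06, and 0 genes passed the edgeR test.

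Genes of GABAergic neurons, cells that could make somatostatin, ordered the libraries in different ways. Gad1, which makes GABA, measured 13.0 and 14.4 CPM with group housing and 23.8 and 12.7 CPM with isolation. Slc32a1, which loads GABA into vesicles, measured 4.34 and 3.58 against 9.22 and 2.15 CPM, and overlaps an antisense gene. Both were highest in isolated replicate 1, whereas Sst was highest in isolated replicate 2, where Slc32a1 was lowest. Gad2 was also highest in isolated replicate 1, at 48.8 and 45.5 against 59.7 and 39.2 CPM. Crhbp, with only 30 to 57 counts, measured 1.46 and 1.91 against 1.64 and 2.15 CPM. Like Sst it was lowest in group-housed replicate 1 and highest in isolated replicate 2, which held for no other gene of the list. Chodl, with 20 to 37 counts, was highest in group-housed replicate 1, at 1.46 and 0.778 against 1.10 and 1.40 CPM. Which cells made Sst was not tested. Of 14 genes on the list of GABAergic and somatostatin interneurons 11 were tested, with 10 higher, 0 passing and a median log2 fold change of 0.10 (-0.015 without isolated replicate 1). Npy, a peptide often made together with somatostatin, measured 0.264 to 0.467 CPM over the 4 libraries. Lhx6, a transcription factor gene of forebrain interneurons, measured 0.113 to 0.350 CPM, and Vip 0.0381 to 0.227 CPM, and these 3 did not pass the filter on low counts. The list's summed level was 593 and 565 CPM in the group-housed against 666 and 572 CPM in the isolated replicates, most of it from Elfn1 (171 to 204 CPM) and Grin3a (149 to 173 CPM), which other neurons also express.

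The dissected tissue carried lateral habenula markers in every library, and marker levels of its neighbours are given beside them. All 9 lateral habenula markers were tested (4 higher, 5 lower, 0 passing, median log2 fold change -0.09, and 0.0078 without isolated replicate 2), and their summed level was 2002 and 1897 CPM in the 2 group-housed libraries, against 2069 and 1829 CPM in the 2 isolated ones. Among them Slc17a6, the vesicular glutamate transporter gene, measured 381 to 439 CPM. The transcription factor gene Pou4f1 measured 136 and 130 against 162 and 151 CPM (0.24, edgeR adjusted p = 0.665). Pou4f1, Gpr151 and Htr5b lay higher in both isolated libraries than in both group-housed ones, as did 17.4% of all tested genes. Gap43 lay lower in both, as did 16.3% of all tested genes, and the other markers overlapped. Which habenular nucleus the Pou4f1 transcripts came from was not tested. Medial habenula markers summed to 1783 and 1700 CPM against 2114 and 2120 CPM, with 11 of 13 higher, a median of 0.41, and both genes that passed the edgeR test among them. These are Slc5a7, the choline transporter gene, at 62.9 and 61.6 against 97.7 and 97.9 CPM, and Chrnb3, a nicotinic receptor subunit gene, at 37.0 and 34.0 against 61.5 and 66.7 CPM (edgeR adjusted p = 0.0227 for each). Nwd2, the most abundant of the list, measured 595 to 644 against 790 to 801 CPM and overlaps a non-coding gene. Thalamus markers summed to 820 and 929 against 780 and 610 CPM, with 11 of 11 lower, 0 passing and a median of -0.45 (-0.25 without isolated replicate 2). Among them Rora, a nuclear receptor gene that overlaps an antisense gene, measured 139 and 165 against 117 and 100.3 CPM, and Amotl1, the most abundant, 237 to 278 CPM over the 4 libraries. Markers of hippocampal and cortical excitatory neurons summed to 418 and 425 against 471 and 510 CPM, with 5 of 8 tested members higher, 0 passing and a median of 0.32. Slc17a7, the glutamate transporter gene of cortical and hippocampal neurons, measured 183 and 196 against 215 and 252 CPM. Neurod1, a transcription factor gene that shares exon sequence with other genes, measured 25.3 and 22.3 against 32.5 and 33.4 CPM. The defining gene Emx1 (0.0762 to 0.156 CPM) lay close to the level of 3 counts, which was 0.113 to 0.146 CPM, and did not pass the filter. Ependymal markers summed to 73.9 and 68.9 against 76.4 and 155 CPM, with 7 of 7 higher, 0 passing and a median of 0.79, a value of 0.11 when isolated replicate 2 was omitted and 1.25 when isolated replicate 1 was. Of these Foxj1, the regulator of motile cilia, measured 25.9 and 22.4 against 22.9 and 44.8 CPM, and the axoneme gene Dnah5 12.1 and 10.8 against 13.8 and 21.8 CPM.

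These levels stand beside the family members in the same libraries. For Sst, Sstr2, Sstr4 and Sstr5 the groups did not overlap and the isolated libraries were the higher ones. The same held for the medial habenula, the hippocampal and cortical, and the ependymal lists, whereas the thalamus list was lower in both isolated libraries. Of all tested genes, 17.4% lay higher in both isolated libraries and 16.3% lower. Sst, Sstr5, the hippocampal and cortical list and the ependymal list were highest in isolated replicate 2. Sstr3, the thalamus list and the lateral habenula list were lowest there. Without isolated replicate 2 the log2 fold change of Sst was 0.40, and those of Sstr2 and Sstr4 were 0.28 and 0.43. The part of the neighbouring tissues in the values of the family members was not tested.

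**Figure D5:**
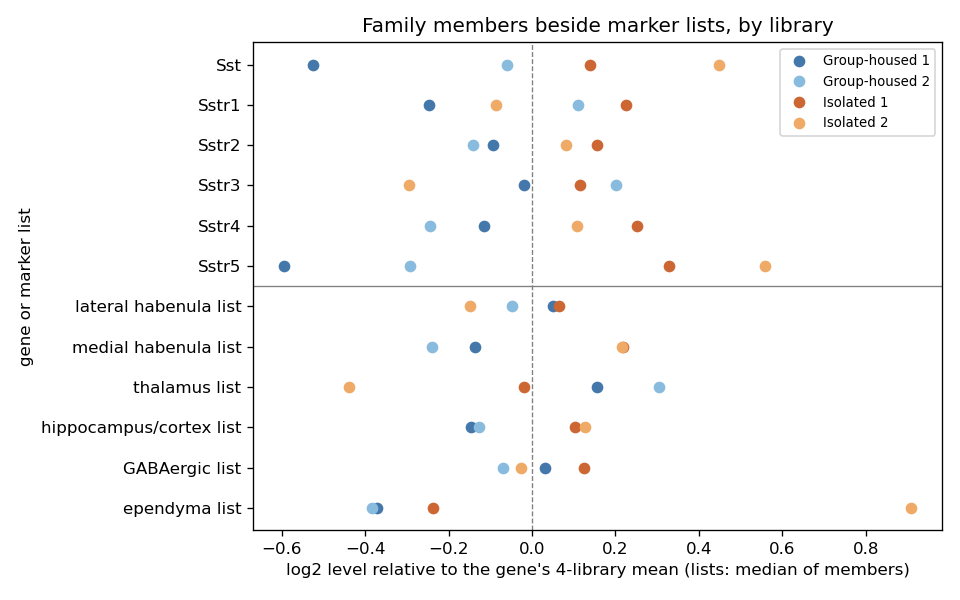
Log2 CPM of each tested family gene in the 4 libraries relative to the gene's own mean, above the line, and the median of the same quantity over the members of 6 marker lists, below it. Blue points are group-housed and orange points isolated libraries. The ependyma list stands at 0.91 in isolated replicate 2 and between -0.38 and -0.24 in the other libraries. Sst, Sstr2, Sstr4, Sstr5 and the medial habenula, hippocampus/cortex and ependyma lists lie higher in both isolated libraries than in both group-housed ones. The thalamus list lies lower in both isolated libraries, and the other rows overlap.

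For each tested gene, the genes with the most similar pattern over the 4 libraries were found among 10793 others (10794 for Sstr1 and Sstr5) with a mean of at least 10 CPM, by the Euclidean distance between log2 CPM values centred on each gene's mean. The closest to Sst were F730016J06Rik (distance 0.10), Clec18a (0.24) and Epha6 (0.24), and 0 genes lay within 0.1. The closest to Sstr2 were Pdzd8 (0.015), Pou4f1 (0.025) and Atp2b3 (0.028), and 140 genes lay within 0.1. Such counts depend on how far a gene's own values spread around its mean, which was 0.25 for Sstr2 and 0.71 for Sst on the same distance scale. Sstr4 was closest to Ppp1r1b (0.030), Fat3 (0.047) and St3gal1 (0.058), with 17 genes within 0.1, and Sstr3 to Efnb2 (0.038), Syn2 (0.044) and Nell1 (0.055), with 29. Sstr1 was closest to Cbln4 (0.080), Dgki (0.11) and Adarb2 (0.11), and Sstr5 to Lamc3 (0.29), Chrnb3 (0.31) and Sst (0.33). Epha6, Ppp1r1b, Syn2 and Lamc3 overlap an exon of another gene. With 4 libraries these distances describe the libraries and carry no test.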

How the data were processed

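For 4 libraries from a stranded poly(A) kit, per the labels' protocols, raw counts by Ensembl gene were deposited as 1 matrix. GRCm38, HTSeq, TopHat2 2.1.1, CASAVA and edgeR are named in the submitters' processing notes. Annotation release, strand setting and read length: not given in the sources used here. They also deposited a normalised signal per library, which equalled each count times a constant (0.0387 to 0.0499) and was not used further. Totals were 20897605 to 26428152 counts per library. Poisson intervals cover counting error only, and the intervals of folds come from the standard error of the quasi-likelihood fit. GENCODE M21 gave symbols for 53274 of 53465 identifiers, coordinates and exon lengths.

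Counts were fitted with edgeR 4.0.16 (R 4.3.3; TMM, filterByExpr, quasi-likelihood test, 2-sided, no covariate, Benjamini-Hochberg over 17528 genes, threshold 0.05; common coefficient of variation 7.20%). CPM used the effective library sizes. RPKM was CPM per kilobase of merged exons, and receptor coding sequences were aligned with MAFFT. DESeq2 1.42.0, limma-voom 3.58.1, edgeR's exact test, other scaling and filters, a replicate block and omission of each library were alternatives. Log2 values for patterns used a prior count of 2.

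Members, lists and tests were chosen with earlier results of these data known. Named genes were the members, Sstr5, each list's most abundant gene, its smallest p and any that passed, and the 3 nearest patterns; other list genes were named after their values were seen, and a few items are not reported here. Lists, described by counts and medians, cover peptide processing and breakdown, Gi and Go alpha subunits, GIRK channels, adenylyl cyclases, arrestins and receptor kinases, primary cilium, and markers of GABAergic interneurons, neurons, medial and lateral habenula, hippocampus with cortex, thalamus, ependyma, choroid plexus, astrocytes, oligodendrocytes and microglia.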

Additional observations from a re-analysis of the deposited data

How the results depend on the processing

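Sstr2, Sstr4 and Sst kept their direction under all 11 alternatives, with log2 fold changes of 0.20 to 0.28, 0.29 to 0.43 and 0.36 to 0.82, and Sstr5 under all 10 that gave a value (0.80 to 1.12). Reversed values were those of Sstr1 without group-housed replicate 1 (-0.032) and without isolated replicate 1 (-0.038; range over omissions -0.038 to 0.32) and of Sstr3 without isolated replicate 2 (0.016; range -0.40 to 0.016). The labels number both groups 1 and 2 and do not say that a number marks a shared animal or day. The deviations of the same-numbered libraries correlated at r = 0.14 over 17528 genes. With a replicate block, Sst had a log2 fold change of 0.58 and an edgeR adjusted p = 0.0461, the one alternative in which a member passed, with 52 genes (0.297%) called higher and 12 (0.0685%) lower, against 2 and 0 without it. Over all genes, 15 were called higher with no filter, 42 higher and 10 lower by DESeq2, and 67 and 15 by edgeR's exact test. Omitting 1 library, which assumes that the lone library of a group varies like the other group, gave 0 to 151 higher and 0 to 70 lower. For group-housed replicate 1 omitted these were 0 higher and 1 lower, for its replicate 2 omitted 1 and 0, for isolated replicate 1 omitted 151 and 70, and for its replicate 2 omitted 2 and 0. The cause was not tested. Without division by exon length, the isolated minus group-housed share was 0.636 percentage points for Sstr2, -2.87 for Sstr3 and 0.427 for Sstr5, against -0.675, -1.45 and 0.299 with it. Of 187 list medians under alternatives, 18 moved by over 0.1, and the medians of 8 of 17 lists changed sign when 1 library was left out. Depth limited Cort and Sstr5 most, as 3 counts were 0.113 to 0.146 CPM.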

Other observations

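Other cell types in the tissue were also described by lists. All 8 oligodendrocyte markers were lower in the isolated libraries (median log2 fold change -0.21, and -0.079 without isolated replicate 1), with Mbp, myelin basic protein, at 4699 and 4151 CPM in the group-housed against 3514 and 3976 CPM in the isolated replicates and Ermn at 212 and 170 against 158 and 161 CPM. Astrocyte markers had 5 of 6 lower (median -0.12), among them the glutamate transporter genes Slc1a2 (1740 and 1598 against 1647 and 1416 CPM) and Slc1a3 (475 and 450 against 404 and 395 CPM). All 6 microglia markers were lower (median -0.12), with Tmem119 at 19.8 and 18.4 against 16.0 and 15.5 CPM. Pan-neuronal genes had 6 of 7 lower (median -0.05, and 0.029 without isolated replicate 2), with Rbfox3, the higher one, at 90.6 and 88.6 against 104 and 95.8 CPM and Map2 at 1080 to 1137 against 1042 to 1138 CPM. Of 8 tested choroid plexus markers 6 were lower (median -0.28), but the median was 0.28 when group-housed replicate 2 was omitted and -0.65 when replicate 1 was. The summed level of the choroid plexus list was 483 and 587 against 414 and 442 CPM, highest in group-housed replicate 2. Most of the sum in each library came from Enpp2, the most abundant, at 445 and 438 against 355 and 372 CPM. The higher sum in group-housed replicate 2 than in replicate 1 did not come from Enpp2. Enpp2 was highest in group-housed replicate 1, where Kl (1.61 CPM) and Folr1 (0.682 CPM) were lowest. No other gene of the list was highest there, so Enpp2 does not stand for the list. Of the 35 tested genes of these 5 lists, 0 passed in edgeR's quasi-likelihood test or limma-voom, while DESeq2 and edgeR's exact test each called 1, Enpp2, as lower. At an unadjusted p below 0.05 in the quasi-likelihood test 2 were higher and 4 lower, beside 2.83% higher and 2.26% lower of all 17528 tested genes. Ermn, Slc1a2, Map2 and Enpp2 overlap exons of another gene.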
